A study of Mus musculus with 2 samples.

Results

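The genes described here are the secreted Wnt ligands, the Frizzled receptors (Fzd) and the secreted Sfrp and Dkk antagonists of the mouse dorsal meninges. Every symbol of the feature list that starts with Wnt, Fzd, Sfrp or Dkk followed by a digit was taken, which gave 38 of 32285 genes: 19 Wnt, 11 Fzd, 4 Sfrp and 4 Dkk symbols. They were followed in 2 single-cell RNA-seq libraries, 1 from male C57BL/6 wild-type mice (C57BL/6J in the study's methods) given a mild closed-skull traumatic brain injury (TBI) and 1 from mice given a Sham procedure without the hit. The dorsal meninges of 5 mice at 10 weeks of age (another label gives 10 to 12) were pooled per library 1 week after the procedure, and live single cells were sorted before loading on the 10x 3' platform. Each group is therefore 1 library of pooled animals, so that no test between Sham and TBI could be made and no p-value is given. The intervals given are 95% intervals for counting error alone and hold nothing of the spread between mice.

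Wnt proteins are lipid-modified secreted ligands that bind a Frizzled receptor on the receiving cell, together with the co-receptors Lrp5 or Lrp6 for the branch that stabilizes beta-catenin. Sfrp proteins carry a Frizzled-like domain and can bind Wnt ligands outside the cell, whereas Dkk1, Dkk2 and Dkk4 act on the Lrp co-receptors and Dkk3 is a divergent relative. In the meninges and brain vessels the pathway is known for the crosstalk between fibroblasts, which secrete ligands and antagonists, and endothelial cells, in which Fzd4 is a receptor for Norrin and for Wnt7 ligands in the formation of the blood-brain and blood-retina barriers.

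The filtered libraries held 2043 Sham and 3773 TBI cells with 7866611 and 13940740 unique molecular identifiers (UMIs), and the median cell held 2764 and 2663 UMIs. A gene with 3 UMIs in a whole library stands at 0.381 (Sham) or 0.215 (TBI) counts per 1000000 UMIs (CPM). The libraries shared 14 cell barcodes after filtering. Cells were clustered without the 38 genes and without the other pathway genes described here, so no cluster was defined by a member. Clusters were named from marker lists as "-like" classes, and 5 of 27 clusters that no list named are called by their leading gene. Among the latter, the cluster led by Snhg11 held all 15 fibroblast markers, each in at least 10% of its cells, and the clusters led by Vwf, Sema3g and Slc38a5 held 13, 14 and 12 of 14 endothelial markers at that level. The 15 fibroblast markers were likewise all present in fibroblast-like cells, and the 13 B cell markers in B cell-like cells. All levels are CPM within a class. As 3' UMIs count captured transcript ends with no scaling for length, levels were compared for the same gene across classes and not between genes.

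Of the 38 genes, 32 had a UMI in the filtered cells, 24 had at least 10 and 19 had at least 50. The Fzd and Sfrp families were the most completely detected, with 9 of 11 and 4 of 4 symbols at 50 UMIs or more, against 4 of 19 Wnt and 2 of 4 Dkk symbols. Wnt1, Wnt3a, Wnt7a, Wnt8a, Wnt9b and Dkk4 had no UMI in either library, which at a floor of 3 counts allows up to 0.381 CPM in Sham and 0.215 CPM in TBI. Wnt3, Wnt4, Wnt2b, Wnt7b, Wnt8b, Dkk1, Fzd10 and Fzd10os, the last an antisense transcript beside Fzd10, had 1 to 8 UMIs each. All 5 UMIs of Wnt2b fell in pineal gland-like cells, as did 5 of 7 of Fzd10os and 3 of 6 of Fzd10. These rarely detected ligands include the Wnt7 ligands of the brain endothelium, so the ligand side of the pathway was seen here mainly through Wnt9a, Wnt5a, Wnt6 and Wnt10a.

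Member UMIs were concentrated in fibroblasts. Fibroblast-like cells held 717 of 1607 member UMIs in Sham (44.6%, 42.2 to 47.1) and 4202 of 6701 in TBI (62.7%, 61.5 to 63.9), while they held 3.42% and 12% of all UMIs. Sfrp4 alone made 353 of these 717 UMIs and 2432 of these 4202, so the shares are in large part those of 1 gene. With the Snhg11-led cluster joined to them, a grouping chosen after the clusters were seen, the shares were 54.1% and 79.3% of member UMIs against 4.61% and 16.2% of all UMIs. Endothelial-like cells followed with 15.1% and 5.24% of member UMIs, and Schwann-like cells held 6.04% and 1.79% of member UMIs with 0.922% and 0.768% of all UMIs. Neutrophil-like cells had no member UMI in either library, but they were only 16 Sham and 26 TBI cells. There 3 UMIs would stand at 65 and 32.4 CPM, above the 16.5 and 29 CPM of all members in macrophage-like cells. The fibroblast-like share depended on how finely the cells were clustered: at a resolution of 1.6 in place of 0.8 it was 16.4% and 25.2%, because fewer cells then received the name.

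**Figure D1:**
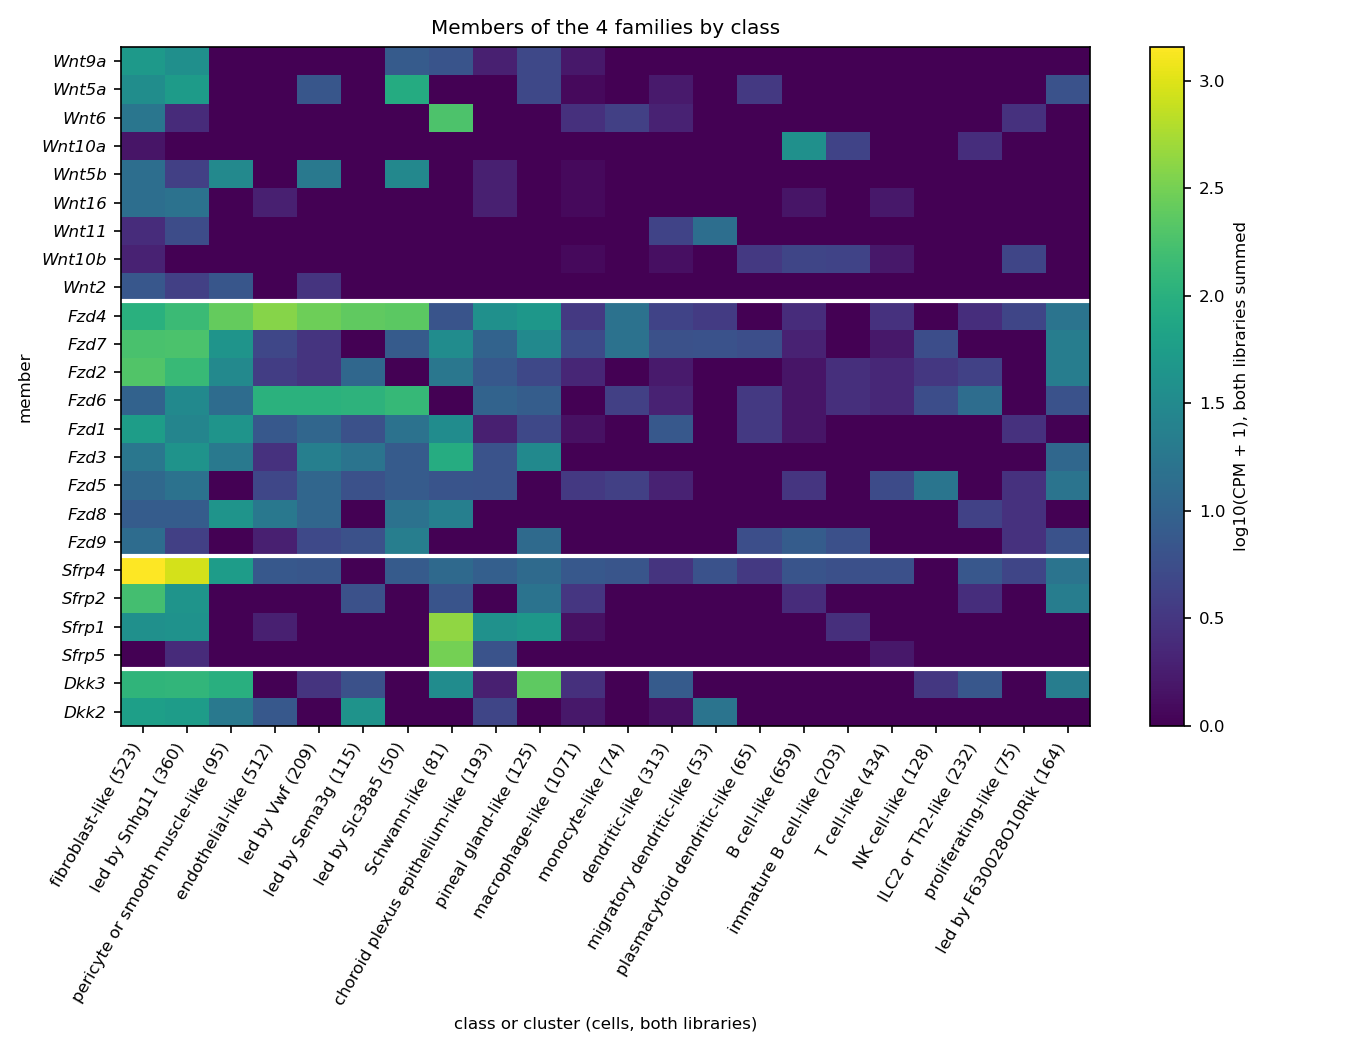
Level of each member with at least 10 UMIs (rows) across the cell classes and unnamed clusters (columns), with both libraries summed and the colour giving log10 of CPM plus 1. Sfrp4, Sfrp2, Fzd2, Fzd7, Dkk2 and Wnt9a are highest in fibroblast-like or Snhg11-led cells, while Fzd4 and Fzd6 are highest over vessel clusters, Wnt6, Sfrp1 and Sfrp5 over Schwann-like cells and Wnt10a over B cell-like cells.

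Among named classes, 11 of the 24 genes with at least 10 UMIs were highest in fibroblast-like cells, 4 in Schwann-like cells, 2 each in B cell-like, endothelial-like and pericyte or smooth muscle-like cells, and 1 each in NK cell-like, migratory dendritic-like and pineal gland-like cells. When the unnamed clusters entered the ranking, 7 of 24 (29.2%) were highest in fibroblast-like cells against 3.66% of 16053 genes with that count. The corresponding shares were 16.7% of members against 7.99% of genes for Schwann-like cells, and 12.5% against 5.08% for the Slc38a5-led cluster. The share of members was the lower one for the Snhg11-led cluster (8.33% against 13.6%) and for pineal gland-like cells (4.17% against 7.11%). For the ranking among named classes alone, no share over all genes was computed. The 11 fibroblast-led genes were Wnt2, Wnt5a, Wnt9a, Wnt16, Fzd1, Fzd2, Fzd7, Fzd9, Sfrp2, Sfrp4 and Dkk2, so that ligands, receptors and antagonists were all among them. The lead was narrow for Wnt2 (6.19 CPM, against 5.99 in pericyte or smooth muscle-like cells) and for Fzd9 (11.9 CPM, against 11.4 in pineal gland-like cells).

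For 25 of the 38 genes RefSeq gives a promoter sequence, and 3 are shown because the results turn on them or because they carry a match to the core letters to which Tcf and Lef factors bind. Sfrp2 and Fzd1 are the members whose counting intervals for TBI over Sham within fibroblast-like cells leave out 0, and Wnt5b is a ligand with a match near its start. Each run is the 250 bases before the RefSeq start of the gene on GRCm38.p6, read 5′ to 3′ on the strand of the gene, and capitals mark a match to CTTTGA or its reverse complement TCAAAG. The positions are chr3:83766071-83766320 on the + strand for Sfrp2, chr5:4758217-4758466 on the - strand for Fzd1 and chr6:119449387-119449636 on the - strand for Wnt5b. The last lies within an intron of longer Wnt5b transcripts in GENCODE vM21, and overlaps no exon.
Sfrp2: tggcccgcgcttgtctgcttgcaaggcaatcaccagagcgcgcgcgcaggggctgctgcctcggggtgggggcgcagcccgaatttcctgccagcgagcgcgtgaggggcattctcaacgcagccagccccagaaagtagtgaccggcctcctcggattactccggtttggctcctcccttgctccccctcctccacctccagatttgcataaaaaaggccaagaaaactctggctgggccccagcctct
Fzd1: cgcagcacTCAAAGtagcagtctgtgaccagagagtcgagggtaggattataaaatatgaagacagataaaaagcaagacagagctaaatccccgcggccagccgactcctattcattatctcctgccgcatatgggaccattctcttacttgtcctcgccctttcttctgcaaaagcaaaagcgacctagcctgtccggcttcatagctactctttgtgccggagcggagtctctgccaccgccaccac
Wnt5b: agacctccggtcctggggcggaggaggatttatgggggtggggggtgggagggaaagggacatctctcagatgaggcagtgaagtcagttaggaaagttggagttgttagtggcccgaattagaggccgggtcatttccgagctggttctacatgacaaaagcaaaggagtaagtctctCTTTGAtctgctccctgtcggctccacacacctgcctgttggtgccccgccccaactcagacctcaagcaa
The match lies 242 bases before the start in Fzd1 and 71 bases before it in Wnt5b, and the letters are absent from the Sfrp2 window. They occurred in 4 of 28 member promoters (14.3%), those of Dkk1, Fzd1, Wnt11 and Wnt5b, and in 4544 of 32851 promoters of all genes (13.8%), so they were not more frequent among members. A match of letters is a description and not a binding site.

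The detected ligands are described first. Wnt9a, a ligand of developing joints and vessels, was the most fibroblast-restricted of the detected ligands (GRCm38 chr11:59306928-59333552). It had 20 UMIs in Sham and 108 in TBI (2.54 and 7.75 CPM over the library), and 94.5% of them lay in fibroblast-like and Snhg11-led cells. Its fibroblast-like level was 55.7 CPM in Sham (15 UMIs) and 48.5 CPM in TBI (81 UMIs), a log2 ratio of -0.24 whose interval spans 0. No B cell-like or T cell-like cell had a Wnt9a UMI.

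Wnt5a, the prototype ligand of the beta-catenin-independent branch (chr14:28504750-28527448), had 24 and 100 UMIs in Sham and TBI (3.05 and 7.17 CPM). The Sham fibroblast-like cells had 52 CPM of it and the TBI cells 31.7 CPM (log2 ratio -0.75, -1.58 to 0.25), and the 14 Sham UMIs leave the direction undecided. Among classes and clusters its highest level was in the Slc38a5-led vessel cluster, at 85.7 CPM (44.3 to 150, 12 UMIs), against 34.5 CPM in fibroblast-like cells. The Moxd1-led fibroblast subcluster described below had a higher level. Of these 12 UMIs 11 were from TBI. Fibroblast-like cells held 54% of all Wnt5a UMIs, or 83.1% with the Snhg11-led cells included. Whether the Slc38a5-led level lay above the Snhg11-led one beyond counting error was not tested. Its close relative Wnt5b had 14 and 33 UMIs, and was at 30 CPM in pericyte or smooth muscle-like cells, 28.6 in the Slc38a5-led cluster, 18 in the Vwf-led cluster and 12.9 in fibroblast-like cells. The pericyte or smooth muscle-like value rests on 5 UMIs, while fibroblast-like cells held 53.2% of all Wnt5b UMIs. The order of these levels was not tested.

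Wnt6 and Wnt10a are neighbours on chromosome 1, both on the + strand with 6193 bases between them (chr1:74771892-74785322 and chr1:74791516-74804179), and were found in different cells. Wnt6 had 22 UMIs in Sham and 59 in TBI. Its level in Schwann-like cells was 193 CPM in Sham (14 UMIs) and 187 CPM in TBI (20 UMIs), against 16.5 CPM over fibroblast-like cells of both libraries. Wnt10a had 44 and 32 UMIs, of which 72 of 76 (94.7%) lay in B cell-like cells. Hence Wnt10a was nearly confined to B cells in these libraries, while Wnt6 was spread over several classes, with 42% of its UMIs in Schwann-like, 39.5% in fibroblast-like and 16% in immune cells.

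Wnt10a was the only member with at least 50 UMIs whose library level was lower in TBI beyond counting error, at 5.59 CPM in Sham and 2.3 CPM in TBI (log2 ratio -1.28, -1.99 to -0.60). Within B cell-like cells the levels were 37.3 CPM in Sham (42 UMIs) and 36.5 CPM in TBI (30 UMIs), with a log2 ratio of -0.03 (-0.76 to 0.68). B cell-like cells were 18.1% of Sham cells and 7.69% of TBI cells, which moved with the library level. Among B cell-like subclusters, the one led by Wfdc21 and Cfp (393 cells) had 50.5 CPM of Wnt10a (38.8 to 64.6) and the one led by Pglyrp1 and Ly6a (218 cells) had 7.5 CPM (2.44 to 17.5), so the ligand was uneven within B cells.

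Of the ligands with fewer counts, Wnt16 (10 and 30 UMIs) and Wnt2 (4 and 12 UMIs) had 87.5% of their UMIs in fibroblast-like and Snhg11-led cells. Wnt11 (8 and 13 UMIs) was highest in migratory dendritic-like cells at 12.9 CPM (4.18 to 30.1, 5 UMIs), and 71.4% of its UMIs were in immune cells. Wnt10b (9 and 8 UMIs) had 76.5% in immune cells.

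Among the receptors, Fzd4 (chr7:89404355-89413134) had the widest vessel pattern, with 332 UMIs in Sham and 741 in TBI (42.2 and 53.2 CPM). It stood at 385 CPM in endothelial-like cells (349 to 423), 284 in the Vwf-led cluster (239 to 335), 258 in pericyte or smooth muscle-like cells (187 to 347), 242 in the Sema3g-led cluster (178 to 322) and 229 in the Slc38a5-led cluster (156 to 323). The endothelial-like level was thus above the other 4 by intervals that do not overlap, whereas those 4 overlap each other and cannot be ordered. Fibroblast-like cells had 100 CPM, Snhg11-led cells 143 and T cell-like cells 1.84. In endothelial-like cells Fzd4 had 172 UMIs in Sham and 251 in TBI, a log2 ratio of -0.29 (-0.57 to 0.00).

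Fzd6 (chr15:39006034-39038188), a receptor known for planar polarity, kept to the vessel lining more closely than Fzd4. It had 90 and 186 UMIs (11.4 and 13.3 CPM), and its level was 129 CPM in the Slc38a5-led, 108 in the Sema3g-led, 104 in endothelial-like and 102 in Vwf-led cells, with intervals that all overlap. Fibroblast-like cells had 8.77 CPM. Within endothelial-like cells it had 50 UMIs in Sham and 64 in TBI (log2 ratio -0.48, -1.03 to 0.09). Fzd8, with 19 and 40 UMIs, had its highest level in pericyte or smooth muscle-like cells at 42 CPM (16.9 to 86.5) and stood at 17.3 CPM in endothelial-like cells.

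**Figure D2:**
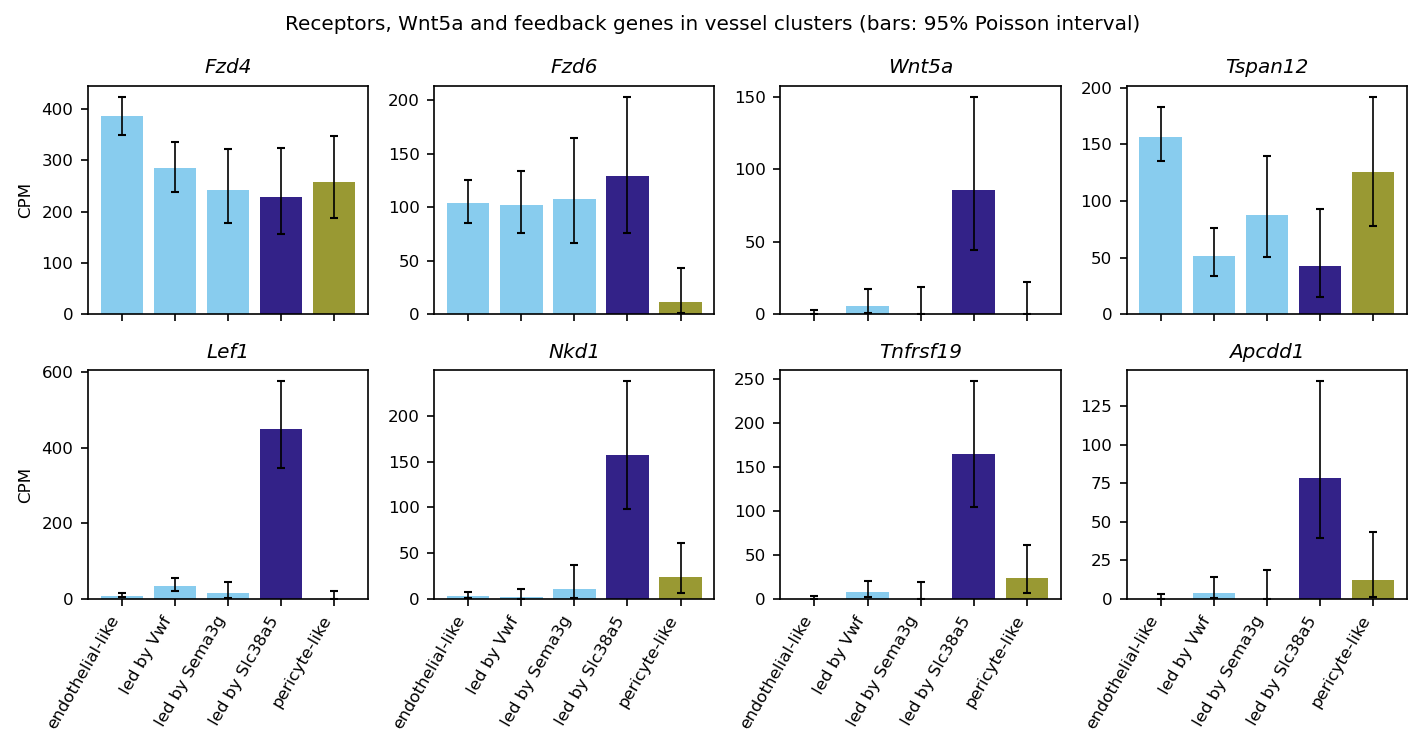
Bars give CPM with 95% Poisson intervals, both libraries summed, of Fzd4, Fzd6, Wnt5a, Tspan12 and 4 feedback genes in endothelial-like, Vwf-led, Sema3g-led and Slc38a5-led cells and in pericyte or smooth muscle-like cells. Fzd4 is present in all of them, while Lef1 stands at 450 CPM in the Slc38a5-led cluster and at 8.19 CPM in endothelial-like cells.

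Fzd2 (chr11:102604396-102608058) and Fzd7 (chr1:59482424-59486955), closely related receptors, were those of the fibroblasts. Fzd2 had 79 UMIs in Sham and 434 in TBI, and Fzd7 had 91 and 473. Fzd2 had 92% of its UMIs in fibroblast-like and Snhg11-led cells and Fzd7 had 83.9%. Per fibroblast-like UMI, Fzd2 amounted to 212 CPM (Sham) and 193 CPM (TBI; log2 ratio -0.14, -0.54 to 0.30). Fzd7 was at 160 and 183 CPM (0.18, -0.27 to 0.69). Neither level differed between the libraries beyond counting error. In cells thinned to 1000 UMIs, 16% of Sham and 18.1% of TBI fibroblast-like cells had a Fzd2 UMI, against 0.268% of thinned T cell-like cells, and unthinned medians were 3526 and 3018 UMIs per fibroblast-like cell and 3503 and 3234 per T cell-like cell. Both receptors occurred together about as often as their shares give: 15.7% of fibroblast cells with a Fzd2 UMI had a Fzd7 UMI, against 15.1% of all thinned fibroblast cells.

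Fzd1 (chr5:4753839-4758035) had 36 and 145 UMIs (4.58 and 10.4 CPM over the library). In fibroblast-like cells it was lower in TBI, at 89.2 CPM in Sham (24 UMIs) and 50.9 CPM in TBI (85 UMIs), with a log2 ratio of -0.83 (-1.48 to -0.09). In dendritic-like cells it was higher in TBI, at 2.87 CPM (4 UMIs) and 9.38 CPM (15 UMIs), with a log2 ratio of 1.58 (0.06 to 3.76). All 19 of these UMIs lay in the subcluster led by Xcr1, a chemokine receptor of cross-presenting dendritic cells, which had 15 Sham and 38 TBI cells and also held 19 of 21 Dkk3 UMIs. Within it Fzd1 was at 26.7 CPM in Sham and 37.9 CPM in TBI, a log2 ratio of 0.38 (-1.15 to 2.55), so the higher class level was not seen beyond counting error in the cells that carry the receptor. In fibroblast-like cells thinned to 1000 UMIs the Fzd1 ratio was -0.43 (-1.99 to 2.15), and the lower level was then within counting error.

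The other receptors were detected at lower counts and with no difference of level in fibroblast-like cells beyond counting error. Fzd3, known in axon guidance, had 28 and 85 UMIs and was highest in Schwann-like cells at 89.1 CPM. Fzd5 had 31 and 56 UMIs with its highest level in NK cell-like cells (16 CPM, 7 UMIs). Fzd9 had 16 and 40 UMIs, 41.1% of them in fibroblast-like cells and 33.9% in immune cells.

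Of the antagonists, Sfrp4 (chr13:19623104-19632994) had the most UMIs, with 432 UMIs in Sham and 3072 in TBI. Over the library its level was 54.9 CPM (49.9 to 60.3) in Sham and 220 CPM (213 to 228) in TBI, a log2 ratio of 2.00 (1.86 to 2.15). Within fibroblast-like cells it was 1312 CPM in Sham (353 UMIs) and 1456 CPM in TBI (2432 UMIs), a log2 ratio of 0.15 (-0.01 to 0.32). The share of these cells with an Sfrp4 UMI was 60.9% in Sham and 57.5% in TBI, or 42% and 39.1% after thinning. Fibroblast-like cells were themselves 3.38% of Sham cells (2.64 to 4.26) and 12% of TBI cells (11 to 13.1). The Snhg11-led cluster had 886 CPM (817 to 960, 609 UMIs), and the next named class, pericyte or smooth muscle-like cells, had 53.9 CPM. With the Snhg11-led cluster joined to fibroblast-like cells, the Sfrp4 log2 ratio was 0.18 (0.04 to 0.33), an interval that leaves out 0.

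Sfrp4 UMIs were unevenly spread over cells and were also found in cells not known to make it. In the joined fibroblasts 454 of 883 cells had a UMI, and the richest had 223. In Sham 61 of 121 cells had a UMI, and the 10 richest held 58.3% of the 420 UMIs. In TBI 393 of 762 cells had a UMI, and the 10 richest held 25.9% of the UMIs. As 10 cells are a larger part of the Sham cells, these shares cannot be compared between the libraries. B cell-like cells had 1 Sfrp4 UMI in Sham and 10 in TBI (0.888 and 12.2 CPM), and T cell-like cells had 0 and 8. Such a low level in lymphocytes moved with the Sfrp4 level of the library, and 0.271% and 3.45% of B cell-like cells had a UMI in Sham and TBI. Its part in the fibroblast values was not tested.

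Sfrp2 (chr3:83766321-83774316), in contrast, was lower in TBI within fibroblast-like cells although it was higher over the library. Its library level was 10.4 CPM in Sham (82 UMIs) and 20.7 CPM in TBI (289 UMIs), a log2 ratio of 0.99 (0.63 to 1.36). Within fibroblast-like cells it was 271 CPM in Sham (73 UMIs) and 146 CPM in TBI (244 UMIs), a log2 ratio of -0.90 (-1.28 to -0.50). The share of cells with a UMI was 14.5% in Sham and 15.4% in TBI (none of the T cell-like cells had one), so the lower level was not accompanied by fewer cells with a UMI. Few cells carry the Sham value: 12 of 121 joined fibroblasts held all 80 Sham UMIs and 10 of them held 97.5%. In TBI 81 of 762 cells had a UMI and the 10 richest held 42.1%. The shares of the 10 richest depend on these cell numbers. The richest joined fibroblast held 33 of the 80 UMIs in Sham and 20 of the 266 in TBI. The counting interval takes no account of this unevenness. Over 12 alternatives of clustering, filtering and scaling the Sfrp2 ratio stayed between -1.46 and -0.83. None of these was made to leave out the richest cells, so the range does not show how far the ratio rests on them.

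Sfrp1 and Sfrp5 had their highest levels in Schwann-like cells. Sfrp1 (76 and 160 UMIs) was at 434 CPM there (343 to 542), with 29 UMIs in Sham and 49 in TBI. Schwann-like cells held 33.1% of its UMIs, and fibroblast-like and Snhg11-led cells together held 41.9%. Sfrp5 (29 and 36 UMIs) had 87.7% of its UMIs in Schwann-like cells, at 317 CPM (240 to 411), and none in fibroblast-like cells. In fibroblast-like cells the level of Sfrp1 was 59.5 CPM in Sham (16 UMIs) and 33.5 CPM in TBI (56 UMIs), with a log2 ratio of -0.86 (-1.65 to 0.07). Choroid plexus epithelium-like cells had 72 CPM of Sfrp1 in Sham (24 UMIs) and 24.6 in TBI (19 UMIs), with a log2 ratio of -1.54 (-2.50 to -0.62).

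Dkk3 and Dkk2 were the Dkk genes with at least 50 UMIs. Dkk3 (chr7:112116017-112159057) had 67 UMIs in Sham and 371 in TBI (8.52 and 26.6 CPM), and Dkk2 (chr3:132085292-132180304), an antagonist at Lrp co-receptors, had 34 and 152 (4.32 and 10.9 CPM). In fibroblast-like cells Dkk3 was at 111 and 115 CPM (log2 ratio 0.02) and Dkk2 at 70.6 and 58.7 CPM (-0.30), both with intervals that span 0. Pineal gland-like cells had the highest Dkk3 level, at 105 CPM in Sham (6 UMIs) and 270 CPM in TBI (56 UMIs), with a log2 ratio of 1.26 (0.15 to 2.87). These cells also had fibroblast markers at 1175 CPM in Sham and 2012 CPM in TBI, 8 of 15 of them in at least 10% of cells and none at 0. They had choroid plexus markers at 46972 and 5536 CPM, 4 of 10 of them in at least 10% of cells. The part of these markers in the Dkk3 value was not tested.

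TBI and Sham were next compared over whole families, which asks whether the pathway differs in level or in the cells that carry it. Over whole libraries every family was higher in TBI. The summed Sfrp genes had 619 UMIs in Sham and 3557 in TBI (78.7 and 255 CPM, log2 ratio 1.70, 1.57 to 1.82), the Dkk genes 101 and 524 (1.54, 1.24 to 1.87), the Fzd genes 725 and 2210 (0.78, 0.66 to 0.91) and the Wnt genes 162 and 410 (0.51, 0.25 to 0.79). Within fibroblast-like cells the Sfrp sum was 1643 CPM in Sham and 1636 CPM in TBI, a log2 ratio of -0.01 (-0.15 to 0.14). This sum adds up genes with unlike ratios in these cells. They were 0.15 (-0.01 to 0.32) for Sfrp4, -0.90 (-1.28 to -0.50) for Sfrp2 and -0.86 (-1.65 to 0.07) for Sfrp1. The Dkk ratio there was -0.08 (-0.50 to 0.40), the Fzd ratio -0.19 (-0.42 to 0.05) and the Wnt ratio -0.51 (-0.95 to -0.02). The higher library levels were thus not seen as higher levels per UMI of a fibroblast-like cell, and the Wnt sum was lower there, at 182 CPM (49 UMIs) and 129 CPM (215 UMIs). With the Snhg11-led cluster joined, the interval of the Wnt ratio reached 0 (-0.43, -0.83 to 0.00), and in Snhg11-led cells alone it was -0.19 (-1.03 to 0.88). All members but the Sfrp genes together made up 1022 CPM in the Sham cells and 880 CPM in the TBI cells (log2 ratio -0.22, -0.40 to -0.02). The difference did not hold beyond counting error when the ratio was centred on the median of all genes (-0.15, -0.33 to 0.05) or the Snhg11-led cluster was joined (-0.13, -0.29 to 0.04). Over the other classes and clusters the interval of the summed Fzd ratio mostly spanned 0. It did so in Vwf-led (-0.15), Sema3g-led (-0.05), Slc38a5-led (-0.10) and pericyte or smooth muscle-like cells (-0.12). The same held for Snhg11-led (0.27), dendritic-like (0.66) and macrophage-like cells (0.72). The summed Fzd genes were lower in TBI by intervals that leave out 0 only in endothelial-like, Schwann-like and choroid plexus epithelium-like cells. Their ratio was -0.31 (-0.55 to -0.06) in endothelial-like cells (237 and 340 UMIs), -1.26 (-2.35 to -0.26) in Schwann-like cells (23 and 14 UMIs) and -1.18 (-1.84 to -0.51) in choroid plexus epithelium-like cells (40 and 41 UMIs). An Sncg-led cluster, described below, was 45.7% of Schwann-like cells in Sham and 21.7% in TBI. It held 75% of their Fzd3 UMIs, and its part in the Schwann-like ratio was not tested. Erythroid markers were lower in TBI in endothelial-like (2290 and 462 CPM), Schwann-like (2427 and 532 CPM) and choroid plexus epithelium-like cells (1906 and 894 CPM). The erythroid markers were also lower in B cell-like and T cell-like cells, where the Fzd intervals are too wide to show whether the Fzd sum was lower. In B cell-like cells the markers were at 1809 and 372 CPM, with a Fzd ratio of 0.02 (-1.26 to 1.23, 15 and 11 UMIs). In T cell-like cells the markers were at 2133 and 275 CPM, with a Fzd ratio of 0.78 (-0.87 to 2.99, 4 and 11 UMIs). The part of these markers in the Fzd ratios was not tested.

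**Figure D3:**
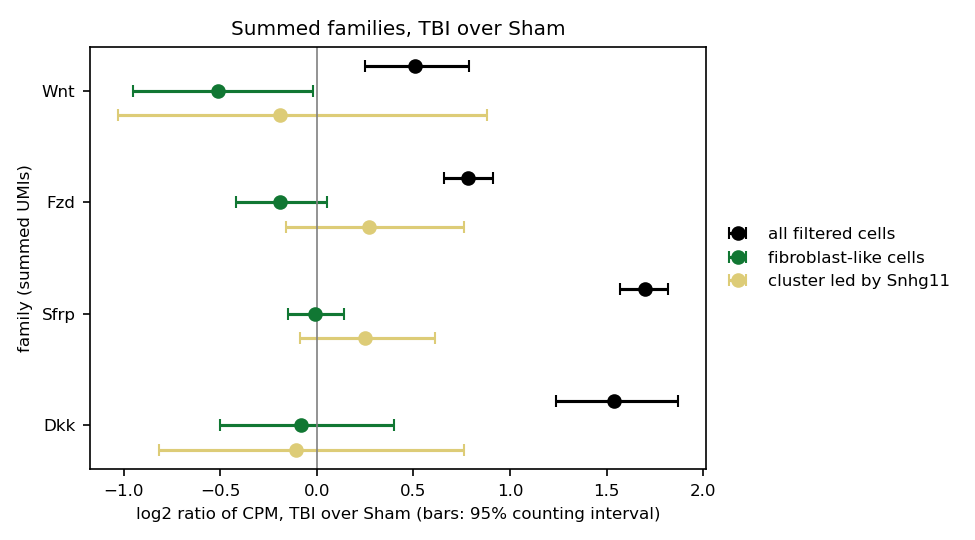
Log2 ratio of TBI over Sham, with 95% counting intervals, for the summed Wnt, Fzd, Sfrp and Dkk genes over all filtered cells (black), fibroblast-like cells (green) and the Snhg11-led cluster (yellow). Over all cells the Sfrp ratio is 1.70, whereas within fibroblast-like cells it is -0.01, a sum in which Sfrp4 is at 0.15 and Sfrp2 at -0.90.

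These ratios rest on 69 Sham and 454 TBI fibroblast-like cells with 269073 and 1670189 UMIs. Markers of other cells in them differed in part between the libraries: macrophage markers summed to 108 CPM in Sham and 865 CPM in TBI with 1 of 18 in at least 10% of cells and none at 0. A subcluster led by the macrophage gene C1qc held 1 Sham and 22 TBI cells of the joined fibroblasts. Endothelial markers summed to 873 and 316 CPM, and pericyte markers to 922 and 436 CPM. Osteoblast markers summed to 4058 CPM in Sham and 1047 CPM in TBI (3 of 7 in at least 10% of cells, none at 0), so they were lower in TBI as Sfrp2 was. That list includes Alpl, which the study uses as a marker of dural fibroblasts. The subcluster led by the osteoblast genes Bglap and Bglap2 held 1 Sham and 17 TBI cells of the joined fibroblasts. Choroid plexus markers summed to 238 and 1254 CPM and erythroid markers to 922 and 244 CPM. The fibroblast markers summed to 47456 and 44940 CPM. The part of these markers in the ratios was not tested. At a clustering resolution of 1.6 the class held 29 and 226 cells, and there the Sfrp ratio was 0.42 and the Sfrp4 ratio 1.24.

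Of 20 members with at least 10 UMIs in fibroblast-like cells, none was higher in TBI by at least 2-fold, against 7.53% of 11074 genes, and 3 (Wnt2, Wnt16 and Fzd6) were lower, against 6.4% of genes. Their median log2 ratio was -0.30, beside -0.07 over all genes, and 6 of 20 were above 0. Each of the 3 has few UMIs: Wnt2 had 4 and 8 (log2 ratio -1.72, -3.53 to 0.55), Wnt16 had 7 and 18 (-1.33, -2.60 to 0.23) and Fzd6 had 4 and 13 (-1.05, -2.63 to 1.14). Hence none of them differed beyond counting error, and with at least 20 UMIs required only 1 member was past 2-fold. In the Snhg11-led cluster 0 of 15 members were higher, against 12.8% of 9185 genes, and 1 (Sfrp2) was lower, against 8.57%. In endothelial-like cells none of 3 members was past 2-fold in either direction, against 5.21% of 9131 genes higher and 3.41% lower. In pericyte or smooth muscle-like cells 1 of 2 members (Dkk3) was higher, against 15.4% of 3656 genes, and 0 were lower, against 9.98%. Dkk3 had no UMI in these 23 Sham cells and 16 in 72 TBI cells, at least 1.85-fold higher against a floor of 3 UMIs, and all 16 were in 6 cells. Fibroblast markers in this class summed to 12830 CPM in Sham and 16661 CPM in TBI, 10 of 15 of them in at least 10% of cells, and their part in the Dkk3 value was not tested.

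**Figure D4:**
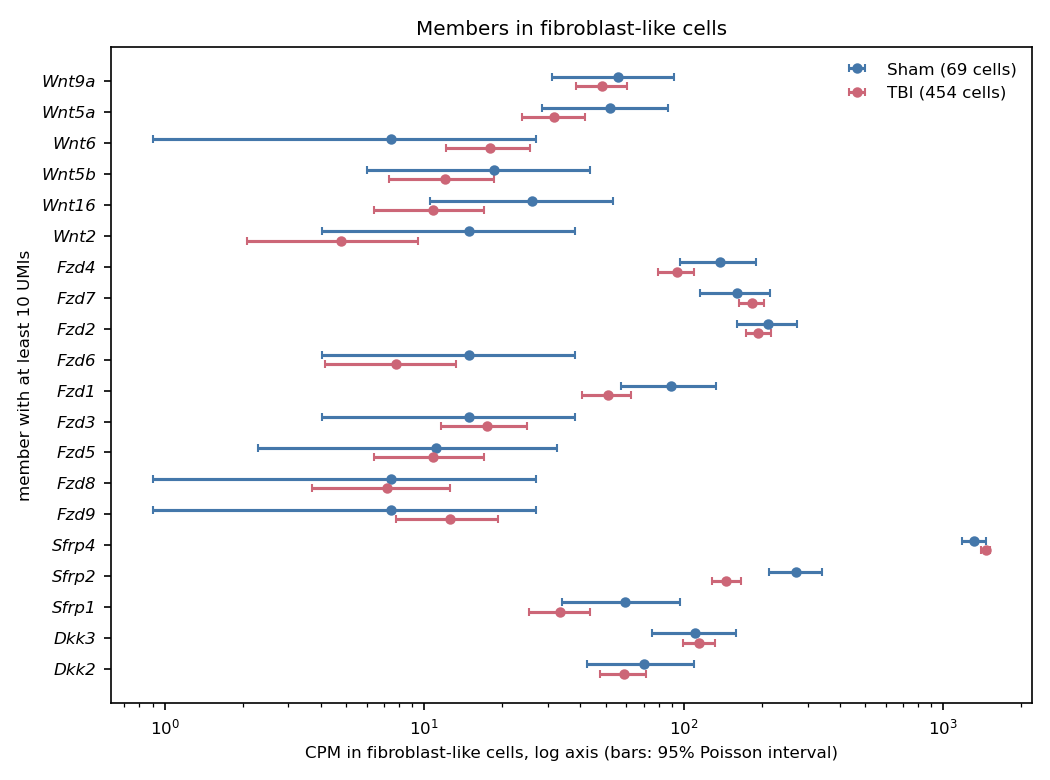
CPM of members in fibroblast-like cells of the Sham and TBI libraries, with 95% counting intervals on a log axis. The Sham and TBI intervals do not overlap for Sfrp2 (271 and 146 CPM), whereas those of the others overlap, among them Sfrp4 (1312 and 1456 CPM) and Fzd1 (89.2 and 50.9 CPM).

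The 883 joined fibroblasts were clustered anew without the members, which gave 10 subclusters called by their leading genes, and ligands and antagonists were divided among them. The Moxd1-led subcluster (12 Sham and 79 TBI cells) had the highest Sfrp4 level, 2921 CPM (2730 to 3121), and the highest Wnt5a level, 185 CPM (139 to 240), with 53.4% of the Wnt5a UMIs of these fibroblasts. Its Sham cells had 189 CPM of Wnt5a (7 UMIs) and its TBI cells 184 CPM (48 UMIs). The same subcluster had no Sfrp2 UMI (up to 10.1 CPM at 3 UMIs) and 1 Dkk2 UMI (3.36 CPM, 0.085 to 18.7).

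The Matn4-led subcluster (22 Sham and 124 TBI cells), with the cartilage-matrix genes Chad and Comp among its leading genes, was its counterpart for Sfrp2. It held 79.2% of the Sfrp2 UMIs of the joined fibroblasts at 545 CPM (482 to 613), and its Fzd1 level of 89.5 CPM (65.3 to 120) was above the 20 CPM of the Gm16070-led subcluster. It had no Sfrp1 UMI and no Wnt6 UMI (each up to 5.97 CPM), while the Moxd1-led subcluster had 73.9 CPM of Sfrp1 (46.3 to 112) and 63.8 CPM of Wnt6 (38.4 to 99.6). Within the Matn4-led subcluster Sfrp2 was 1070 CPM in Sham (76 UMIs, 10 cells) and 459 CPM in TBI (198 UMIs, 56 cells), a log2 ratio of -1.23 (-1.61 to -0.82). Sfrp4 there was 394 CPM in Sham (28 UMIs) and 876 CPM in TBI (378 UMIs), a log2 ratio of 1.13 (0.60 to 1.76). The antagonists thus differed in direction between the libraries within a single subcluster, by counts that rest on 22 Sham cells. The 76 Sham UMIs of Sfrp2 came from 10 of these cells, of which the richest held 33. The intervals take no account of this unevenness, and no alternative was run for subclusters. Both antagonists were found together about as often as their shares give. Of 52 thinned fibroblasts with an Sfrp2 UMI, 17 had an Sfrp4 UMI (32.7%), against 37.2% of all 753.

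Dkk2 was highest in the Penk-led subcluster (18 Sham and 168 TBI cells) at 101 CPM (80.9 to 125), against 49.7 CPM in the Matn4-led subcluster. Wnt9a did not follow these divisions, at 60.8, 61.7 and 47 CPM in the Penk-led, Matn4-led and Moxd1-led subclusters. Wnt6 was highest in the small Ptgds-led subcluster (3 Sham and 21 TBI cells) at 155 CPM (66.9 to 305, 8 UMIs) and had no UMI in the Penk-led one (up to 3.58 CPM). The Ptgds-led cells had 96.8 CPM of Sfrp4 (31.4 to 226). Their arachnoid markers summed to 155213 CPM, of which Ptgds, the prostaglandin D synthase of the arachnoid, made 152348. Sfrp2 was also present in the Bglap-led subcluster at 501 CPM (310 to 766), where all 21 UMIs came from 2 TBI cells.

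**Figure D5:**
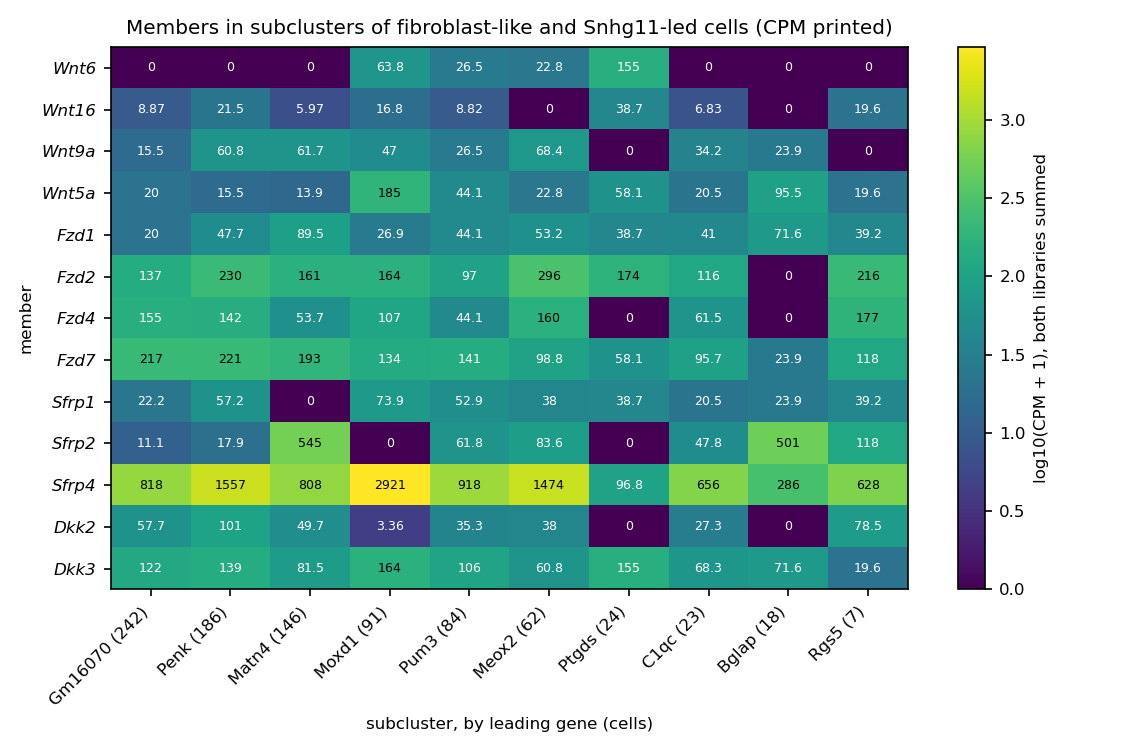
CPM of 13 members (printed, with the colour giving log10 of CPM plus 1) in 10 subclusters of the joined fibroblasts, named by leading gene with the number of cells, both libraries summed. Wnt5a and Sfrp4 are highest in the Moxd1-led subcluster (185 and 2921 CPM) and Sfrp2 in the Matn4-led one (545 CPM), while Wnt6 is at 155 CPM in the Ptgds-led cells.

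Schwann-like cells (35 in Sham and 46 in TBI) fell into an Scn7a-led cluster of 55 cells and an Sncg-led cluster of 26, which has the myelin and myelin-junction genes Ncmap and Cldn19 among its leading genes. All 34 Wnt6 UMIs and all 78 Sfrp1 UMIs of these cells were in the Scn7a-led cluster, at 288 CPM (200 to 403) and 661 CPM (523 to 825). The Sncg-led cells had no Wnt6 UMI (up to 48.6 CPM). Sfrp5 was in both, at 263 CPM (179 to 373) and 422 CPM (275 to 618), and Fzd3 was at 33.9 CPM (9.24 to 86.8) and 195 CPM (101 to 340). Fzd3 was thus higher in the Sncg-led cluster (12 UMIs against 4), by intervals that do not overlap, and the Sfrp5 intervals of both clusters overlap.

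Co-receptors, other inhibitors, transducers and targets of the pathway, from lists of 2 to 14 genes, were examined in the same classes. Within fibroblast-like cells no gene of the co-receptors (8 with at least 10 UMIs, median log2 ratio -0.18), other inhibitors (3, 0.13), Norrin and Wnt7 co-receptor axis (2, -0.43), lipidation and secretion genes (2, -0.44), intracellular transducers (9, -0.19) and Tcf and Lef factors with partners (6, 0.03) was past 2-fold in either direction. In the R-spondin axis 1 of 3 genes and among the feedback targets 1 of 6 was lower, in both lists Znrf3, the ligase that removes Frizzled from the membrane, with 4 UMIs in Sham and 13 in TBI (log2 ratio -1.05, -2.63 to 1.14). Over all genes of these cells 6.4% were lower. Rspo3, an R-spondin that counters this ligase, was highest in fibroblast-like cells with 758 CPM in Sham and 704 CPM in TBI (log2 ratio -0.11, -0.32 to 0.11). The inhibitor Igfbp4 was also highest there (1390 CPM), as was the glypican Gpc3 (372 and 319 CPM). Wls, which carries Wnt ligands to the cell surface, was at 300 CPM in fibroblast-like and 443 CPM in pineal gland-like cells.

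In endothelial-like cells 1 of 3 co-receptors was higher, Lrp6, with 30.3 CPM in Sham (12 UMIs) and 82.4 CPM in TBI (58 UMIs), a log2 ratio of 1.40 (0.53 to 2.48), against 5.21% of all genes higher and 3.41% lower. No other list had a gene past 2-fold there (0 of 2 inhibitors, 0 of 3 Norrin axis genes, 0 of 2 secretion genes, 0 of 8 transducers, 0 of 5 Tcf and Lef factors and partners, and 0 of 1 feedback target). Tspan12, the Fzd4 partner for Norrin, had its highest level in endothelial-like cells at 172 CPM (Sham) and 149 CPM (TBI). In pericyte or smooth muscle-like cells Lrp5 and Ccnd1 were lower and Tcf7l1 higher past 2-fold, on 10 to 12 UMIs each and with intervals that span 0, against 9.98% of all genes lower and 15.4% higher. Lrp5 had 5 UMIs in Sham and 7 in TBI, Ccnd1 had 6 and 6, and Tcf7l1 had 1 and 9. They were 1 of 4 co-receptors, 1 of 1 feedback target and 1 of 3 Tcf and Lef factors and partners with at least 10 UMIs. None of 1 inhibitor, 2 Norrin axis genes, 1 secretion gene and 4 transducers was past 2-fold. In the Snhg11-led cluster Ror2 (6 and 7 UMIs, log2 ratio -2.45, -4.24 to -0.59) and Kremen1 (12 and 33 UMIs, -1.24, -2.19 to -0.11) were lower past 2-fold, against 8.57% of all genes. Igfbp4 (30 and 395 UMIs, 1.04, 0.52 to 1.65), Pygo1 (1 and 26 UMIs), Gsk3a (0 and 18) and Tcf7l1 (0 and 10) were higher, against 12.8% of all genes, the last 3 with intervals that span 0. Those lower were 1 of 7 co-receptors and 1 of 2 inhibitors with at least 10 UMIs there. Those higher were 1 of 2 inhibitors, 1 of 8 transducers and 2 of 6 Tcf and Lef factors and partners. None of 2 R-spondin axis, 2 Norrin axis and 2 secretion genes was past 2-fold. Sostdc1, an inhibitor highest in choroid plexus epithelium-like cells, was at 918 and 733 CPM there.

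Several genes known as feedback targets of the pathway were highest in a single small vessel cluster. Of 13 such genes with at least 10 UMIs, 4 (30.8%) had their highest level in the Slc38a5-led vessel cluster (12 Sham and 38 TBI cells), against 5.08% of all genes. Lef1, a transcription factor and target of the pathway, reached 444 CPM (13 UMIs) in the Sham cells and 452 CPM (50 UMIs) in the TBI cells, with a UMI in 62% of cells. Endothelial-like cells had 8.19 CPM (3.74 to 15.5) and a UMI in 1.76% of cells, at medians of 1902 and 2045 UMIs per cell against 2237.5 and 2795.5 in the Slc38a5-led cluster. Nkd1 was at 157 CPM (98.5 to 238) against 2.73 CPM, Tnfrsf19 at 164 CPM (104 to 247) against 0, and Apcdd1 at 78.6 CPM (39.2 to 141) against 0. Axin2, another target, had only 1 UMI in this cluster and was highest in ILC2 or Th2-like cells at 51.4 CPM. Among classes and clusters, subclusters left aside, this cluster also had the highest levels of the members Fzd6, Fzd9 and Wnt5a. Fzd6 did not differ from the other vessel clusters beyond counting error. Fzd9 was at 21.4 CPM, against 11.9 CPM in fibroblast-like cells, and the Wnt5a level rests on 12 UMIs. Whether Fzd9 and Wnt5a stood above all other classes and clusters beyond counting error was not tested.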

How the data were processed

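Per the labels and the matrix headers, the authors deposited raw UMI counts per gene and barcode of 2 10x 3' version 2 libraries (Sham and TBI, 5 pooled mice each), made with Cell Ranger on mm10. The version is 2.1.1 in the submitters' processing notes and 3.1.0 in the matrix header, and the same notes name Seurat 3.9.9 and DESeq2 1.30.0. The counts were neither filtered by quality nor normalized. The 38 genes and all lists were chosen with earlier results of these data known, and the named genes were those with at least 50 UMIs, with the others given by counts and, for each pathway list, the 3 genes with the highest level.

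Of 2699 Sham and 4349 TBI barcodes (9527334 and 15011079 UMIs), those with 150 to 5000 genes, at most 20% mitochondrial and at most 5% hemoglobin UMIs were kept (604 and 431 barcodes were over the last limit). Predicted doublets (33 and 114 cells) were left in, as the study's steps against doublets were a singlet gate and the gene limit. Before filtering, 20 barcodes were shared by the libraries. Cells were scaled to 10000 UMIs and clustered jointly on 2000 variable genes, members and pathway genes left out, with 20 components, 20 neighbours and the Leiden method at resolution 0.8 (seed 1). Class names required 3 or more listed markers within a cluster's 50 genes of highest fold, each detected in at least 10% of its cells. UMIs were summed per class and library and given as CPM with exact Poisson intervals. Log2 ratios took 0.5 added to each sum and exact binomial intervals, and shares exact Clopper-Pearson intervals. For the background, genes with at least 10 UMIs in a class were counted past 2-fold. Shares across depths were compared in cells thinned to 1000 UMIs, which left out 388 Sham and 539 TBI cells. Positions are from GENCODE vM21 (GRCm38), matched for all 38 genes by gene ID, and promoters from RefSeq (GRCm38.p6). Software was Python 3.11.15 with numpy 2.4.6, scipy 1.17.1, pandas 2.3.3, scikit-learn 1.9.0 and leidenalg 0.10.2. The ratio with its interval was tested on simulated class sums, and the clustering on simulated cell types. The simulated sums hold no unevenness of UMIs between cells, and the other steps were not tested in this way. Alternatives of filter, resolution, doublets, scaling and thresholds were computed.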

Additional observations from a re-analysis of the deposited data

Results flagged for a closer look

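Fzd1 had ratios of opposite direction in different classes, and in both the counting interval leaves out 0. Its log2 ratio of TBI over Sham was 1.58 in dendritic-like cells (4 and 15 UMIs) and -0.83 in fibroblast-like cells (24 and 85 UMIs). The difference between the classes was not tested, since each group is 1 library, and the pair was found by looking over all members and classes. In the Xcr1-led subcluster, which held all of the dendritic-like UMIs of Fzd1, the log2 ratio was 0.38 (-1.15 to 2.55).

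The barcodes that the quality limits removed, which enter no comparison above, also held member UMIs, and in TBI more than in Sham. Over 576 removed TBI barcodes with 1070339 UMIs the Wnt genes stood at 14 CPM, the Fzd genes at 58.9, the Sfrp genes at 79.4 and the Dkk genes at 34.6. Over 656 removed Sham barcodes with 1660723 UMIs the same sums were 2.41 CPM (0.656 to 6.17), 13.8 (8.78 to 20.8), 13.2 (8.30 to 20.1) and 4.82 (2.08 to 9.49). All 4 TBI values lie above the Sham intervals, and the removed barcodes differ in kind between the libraries, as 604 Sham and 431 TBI barcodes were over the hemoglobin limit.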

How the results depend on the processing

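No paired analysis was possible because each group is 1 pooled library. Alternatives were run for members within fibroblast-like cells and for the summed values below, not for ratios in other classes or subclusters. Among those run, no ratio past 2-fold changed sign, while the Wnt6 ratio in fibroblast-like cells, 0.97 on 32 UMIs, was -1.03 as a mean over cells. Several smaller ratios there also changed sign, among them those of Dkk2 (-0.35 to 0.69) and Fzd2 (-0.82 to 0.31). Others, such as Sfrp2 (-1.46 to -0.83) and Fzd1 (-1.20 to -0.25), kept their sign. The share of member UMIs in fibroblast-like cells, 44.6% in Sham and 62.7% in TBI, moved to 54.1% and 79.3% at a clustering resolution of 0.4, with the same values where the Snhg11-led cluster was joined (added after seeing the data), to 16.4% and 25.2% at 1.6, and to 32.1% and 54.6% with cells thinned to 1000 UMIs. The Sham share was 41.7% without predicted doublets. At 0.4 the name covered 119 Sham and 762 TBI cells, and at 1.6 it covered 29 and 226. The Sfrp ratio in fibroblast-like cells, -0.01, became 0.42 at 1.6 and -0.23 as a mean over cells, and the ratio of the other members, -0.22, became 0.01 as a mean over cells. The count of members past 2-fold, 3, became 5 at 1.6, 1 with at least 20 UMIs, 9 with no minimum count and 9 at 1.5-fold. The share over all genes was computed for the main setting only. These other counts therefore cannot be set against all genes and are no result about the members. The Sfrp ratio over all cells, 1.70, became 1.85 with no filter on cells, 1.86 without predicted doublets and 1.51 as a mean over cells. The cause of these moves was not tested beyond the cells or genes that enter. Members led by fibroblast-like cells numbered 8 to 13. Of 228 values of single members, 10 moved beyond their counting interval and 218 did not. Wide intervals at low counts make this easy to meet: Fzd3, which ran from -0.18 to 1.34, counted as not moved. The tally is thus no measure of stability. Of the summed values, shares and counts, 19 moved and 62 did not, where a count moved if it changed by more than 1.5-fold. Only 4 of 19 Wnt genes reached 50 UMIs, so most ligands have wide intervals at this depth.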

Other observations

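Other genes that the pathway lists named had their highest levels outside fibroblasts. Frzb, a secreted relative of the Sfrp genes, was highest in Schwann-like cells at 184 CPM, and Reck was also highest there at 77.9 CPM. Adgra2, the adhesion receptor that works with Reck for Wnt7 ligands, was highest in the Slc38a5-led vessel cluster at 143 CPM. Ccnd1, a cell-cycle target, was highest in plasmacytoid dendritic-like cells at 827 CPM, and Tcf7 in T cell-like cells at 142 CPM. Lgr4 was highest in pineal gland-like cells at 37.8 CPM, and Lgr5 in immature B cell-like cells at 23.2 CPM. In the Snhg11-led cluster, Lrp6 (489 CPM), Tcf7l2 (336 CPM), Csnk1a1 (504 CPM), Gsk3b (210 CPM) and Porcn (36.4 CPM) had their highest levels, and 13.6% of all genes with at least 10 UMIs were highest in that cluster. Lrp5 was highest in the Vwf-led cluster at 196 CPM, and Ctnnb1 in the Sema3g-led cluster at 871 CPM.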
